A study of Mus musculus with 3 samples.

Results

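Integrin receptors and their adaptors were examined in ChIP-seq peak lists of the forkhead transcription factors Foxc1 and Foxc2 from mouse kidney glomeruli. The group was a list of 9 genes fixed by name, out of 21887 protein-coding genes: the integrin chains Itgb1, Itgb5, Itgb8, Itga3 and Itgav, the tetraspanin Cd151, and the cytoplasmic adaptors Ilk, Parva and Fermt2. A peak was counted for a gene when its summit, the base of highest enrichment, lay in the RefSeq GRCm38 span of the gene or within 50 kb of either end. By this rule 24 Foxc1 peaks and 18 Foxc2 peaks were assigned to the 9 genes, and none of these peaks was counted for more than 1 of them.

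Chromatin was immunoprecipitated with antibody D8A6 to Foxc1 or antibody AF6989 to Foxc2 from glomeruli of C57BL/6 mice aged 8 weeks, which the labels describe by strain, age and tissue only, naming no genetic change or treatment. Each antibody had 1 library and a further library held input DNA, whose data were not analysed here. The lists held 5213 Foxc1 and 2881 Foxc2 peaks, and the read depth behind them is unknown because they carry no counts. With 1 library per antibody no spread between animals could be measured, so no comparison below carries a test, exact 95% Clopper-Pearson intervals cover counting error only, and a list of weaker enrichment can miss sites that were bound. Whole glomeruli also contain endothelial and mesangial cells, and a peak list does not show which cell a peak came from.

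Integrins are paired receptors of an alpha and a beta chain that hold cells to the extracellular matrix and link it to actin. In the podocyte, the epithelial cell that covers the glomerular capillaries, the Itga3 and Itgb1 chains form the main receptor for the laminin of the basement membrane, and Cd151 binds that receptor sideways in the membrane. Itgav pairs with several beta chains, Itgb5 and Itgb8 among them: with Itgb5 it binds vitronectin, and with Itgb8 it binds latent TGF-beta. Inside the cell, Fermt2 encodes a kindlin that binds the tails of beta chains and activates the receptor, while the pseudokinase encoded by Ilk binds the parvin encoded by Parva, which in turn binds actin. Foxc1 and Foxc2 are closely related forkhead factors, and forkhead proteins are known to bind DNA with a TAAACA core.

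Of the 9 genes, 8 had a Foxc1 summit, against 29.3% of all protein-coding genes. A Foxc2 summit was found at 7 of the 9, against 23.2% of all genes, and summits of both antibodies at 7, against 12.5%. Itgb8 had a Foxc1 peak alone, and Ilk had neither. These genes are longer than most, with a median span of 71.5 kb against 17.2 kb over all protein-coding genes, and a longer window can collect more peaks. The windows of the 9 genes held 15.9 Foxc1 and 12 Foxc2 peaks per Mb, against 2.61 and 1.6 in the merged windows of all protein-coding genes. Merging counts a stretch near several genes once, so the latter are not averages over windows of single genes. The part of gene length in these counts was not tested. Without Itgb5 the densities of the other 8 windows were 12.4 and 7.77 per Mb. All 9 genes were chosen with earlier results of these data known, so these counts and densities describe the list and support nothing further.

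**Figure D1:**
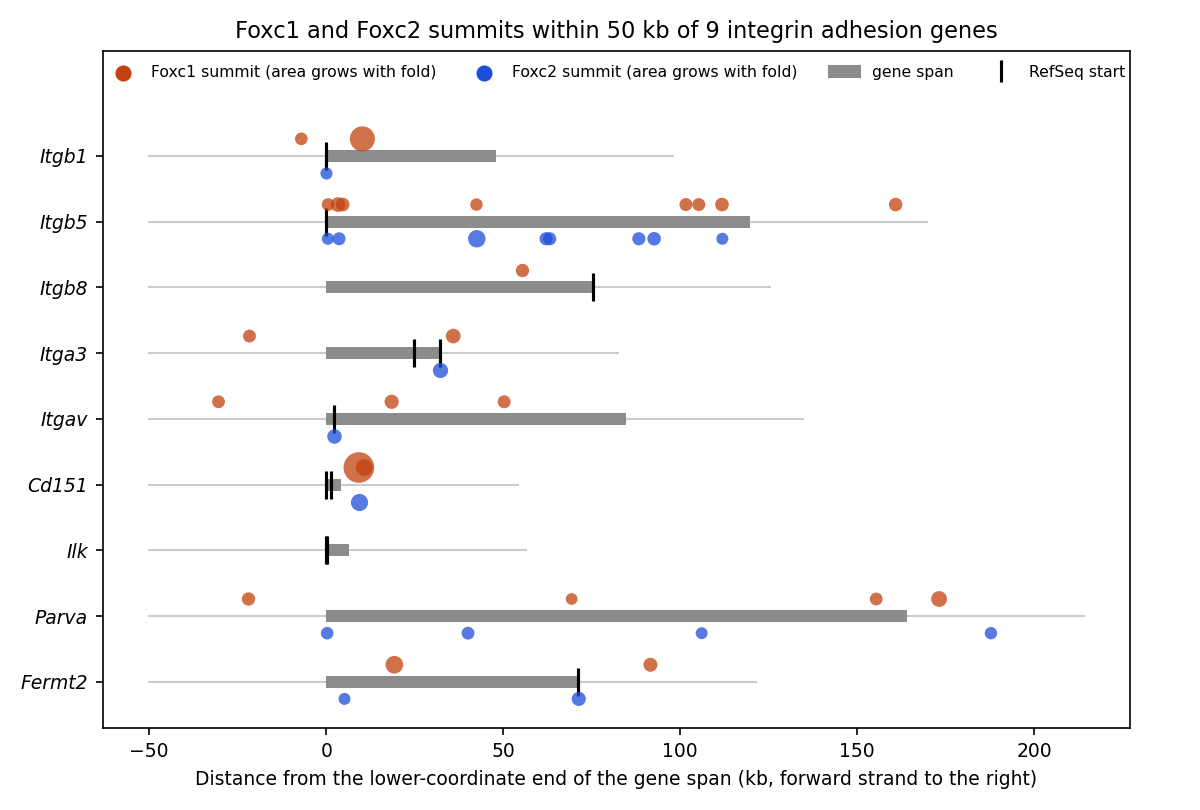
Summits assigned to each gene, as distance in kb from the lower-coordinate end of the gene span, with Foxc1 summits drawn above the span and Foxc2 summits below it; point area grows with fold enrichment, grey bars are gene spans, thin lines are the 50 kb flanks and black ticks are RefSeq starts (none is drawn for Parva). Itgb5 carries 8 summits of each antibody, Ilk none, and Foxc2 summits sit at the start ticks of Itgb1, Itga3, Itgav and Fermt2.

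The sites where a Foxc2 summit fell on the start of the gene are shown first. RefSeq start windows of GRCm38.p6 run from 250 bases before a gene's start to 50 after it, and 8 of the 9 genes had at least 1 window, 11 in all. Foxc2 summits lay inside the windows of Itgb1, Itgav, Itga3 and Fermt2, and none of the 11 windows was touched by a Foxc1 peak. Of all 32851 start windows, 221 held a Foxc1 summit and 808 a Foxc2 summit, so a window without a Foxc1 summit is usual. The sequences are written 5′ to 3′ on the strand of the gene. Capitals mark the Foxc2 summit with 25 bases on each side, which the end of the window limits to 40 bases in Itga3.
Itgb1 (GRCm38.p6, chr8:128685404-128685703, + strand): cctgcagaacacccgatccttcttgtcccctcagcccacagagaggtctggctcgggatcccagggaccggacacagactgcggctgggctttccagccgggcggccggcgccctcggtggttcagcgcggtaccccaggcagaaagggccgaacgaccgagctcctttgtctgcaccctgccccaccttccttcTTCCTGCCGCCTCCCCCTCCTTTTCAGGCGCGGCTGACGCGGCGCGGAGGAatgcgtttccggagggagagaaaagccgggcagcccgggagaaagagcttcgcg
Itgav (GRCm38.p6, chr2:83724147-83724446, + strand): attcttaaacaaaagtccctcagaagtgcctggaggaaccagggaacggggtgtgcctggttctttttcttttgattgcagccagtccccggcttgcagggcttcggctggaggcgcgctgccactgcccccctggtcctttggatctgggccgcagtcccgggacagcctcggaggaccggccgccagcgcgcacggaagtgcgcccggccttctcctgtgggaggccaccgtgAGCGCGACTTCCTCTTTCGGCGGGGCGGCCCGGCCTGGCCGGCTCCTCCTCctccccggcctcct
Itga3 (GRCm38.p6, chr11:95076665-95076964, - strand): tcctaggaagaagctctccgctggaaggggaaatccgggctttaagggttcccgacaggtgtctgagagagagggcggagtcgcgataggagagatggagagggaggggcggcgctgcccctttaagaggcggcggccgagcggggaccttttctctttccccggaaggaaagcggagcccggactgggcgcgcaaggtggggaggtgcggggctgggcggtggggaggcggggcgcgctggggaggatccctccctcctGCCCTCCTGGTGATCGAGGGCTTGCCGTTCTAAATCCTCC
Fermt2 (GRCm38.p6, chr14:45530016-45530315, - strand): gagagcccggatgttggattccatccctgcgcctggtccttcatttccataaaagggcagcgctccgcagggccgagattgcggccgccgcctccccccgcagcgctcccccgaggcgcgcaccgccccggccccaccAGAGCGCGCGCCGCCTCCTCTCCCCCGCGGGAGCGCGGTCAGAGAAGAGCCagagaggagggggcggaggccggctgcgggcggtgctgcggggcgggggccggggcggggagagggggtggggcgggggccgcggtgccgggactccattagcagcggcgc

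These 4 windows were rich in G and C. Their G and C content was 67.3% in Itgb1, 67.3% in Itgav, 66.7% in Itga3 and 76.7% in Fermt2, against a median of 52.7% over all 32851 windows of the table and 70.3% over the 808 windows that held a Foxc2 summit. The number of CG pairs was 27, 24, 24 and 37 in the same order, against a median of 7 over all windows and 32 over those with a Foxc2 summit. Among windows of the group without a summit, only those of Ilk were as rich. Its 2 windows, which overlap, had 69% and 72% G and C with 29 and 37 CG pairs. The windows of Itgb5, Cd151 and Itgb8 and the other window of Itga3 were poorer than all 4. They ranged from 52.3% to 65.7% G and C and from 4 to 20 CG pairs.

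A forkhead core was found at 1 start of the group. TAAACA, searched on both strands, was present in the Itgav window alone, beginning at position -245 relative to the start. It lay outside the capitals and outside the Foxc2 peak itself, which begins nearer the start. It was thus in 1 of 11 windows of the group, against 13.4% of all windows. Among windows with a Foxc2 summit it was in 1 of the 4 of the group, against 6.44% of all 808. The longer GTAAACA, which contains it, was in none of the 11, against 3.65% of all windows. CATTCC, the element bound by TEAD factors, was in the Itgb1 window alone, on the reverse strand, against 14.7% of all windows. A match is a stretch of letters only, and its absence says nothing about sequence outside the window.

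Among the integrin chains, Itgb1 encodes the beta chain shared by most matrix receptors of the cell (chr8:128685654-128733579). Of its Foxc1 peaks, the stronger, at chr8:128695650-128696226, reached a fold enrichment of 19.1 over the local background of the authors' peak caller and ranked 125th of 5213. That summit was inside the gene, 10.2 kb from the start, and no Foxc2 peak overlapped it. The other Foxc1 peak, of fold 3.8, lay 7.04 kb before the start. The Foxc2 peak had a fold of 3.4, rank 2381 of 2881, and its summit lay 30 bp before the start. At Itgb1 the highly ranked Foxc1 peak thus stood apart from the start, which carried a Foxc2 peak of low rank.

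Itga3 encodes the laminin-binding partner of that chain (chr11:95044475-95076844). A Foxc1 peak of fold 5.7 had its summit 3.66 kb before a start of the gene. A further Foxc1 peak counted for Itga3, of fold 4.11, lay inside the neighbouring gene Samd14, 21.7 kb from the end of Itga3. The Foxc2 peak had a fold of 6.19, rank 194 of 2881, with its summit 35 bp after the same start. The peaks of the antibodies at the start of Itga3 did not overlap, with 3.69 kb between their summits.

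Itgav encodes the alpha chain that receptors for vitronectin and latent TGF-beta share (chr2:83722303-83806917). Its Foxc1 peaks had folds of 5.2 and 4.11 inside the gene, 16.4 and 48.2 kb from the start, and 3.96 outside it, 32.5 kb from the start. A Foxc2 peak of fold 5.5, rank 367 of 2881, had its summit 10 bp after the RefSeq start. That summit lies 2.1 kb inside the annotated span, so distances measured to the ends of the span miss it. The nearest Foxc1 summit was 16.4 kb from this Foxc2 summit.

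The partners of Itgav differed widely. Itgb8 (chr12:119162803-119238276) had a single peak, of Foxc1, with a fold of 4.43 and its summit 20.2 kb inside the gene from the start. The nearest Foxc2 summit to the start of Itgb8 was 936 kb away. Itgb5 (chr16:33829665-33949338) had 8 peaks of each antibody. At least 8 Foxc1 peaks were counted for 20 of the 21887 genes, and at least 8 Foxc2 peaks for 9 of them. Itgb5 was the only gene that met both counts, 1 gene or 0.00457% of all. Among the 3425 genes with spans of 0.5 to 2 times that of Itgb5, itself included, 41% had a Foxc1 peak and 5 had 8 or more, while 29.7% had a Foxc2 peak and 1, Itgb5, had 8. It was chosen for this group by name, with its peak counts already known, so these figures describe it and support nothing further.

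**Figure D2:**
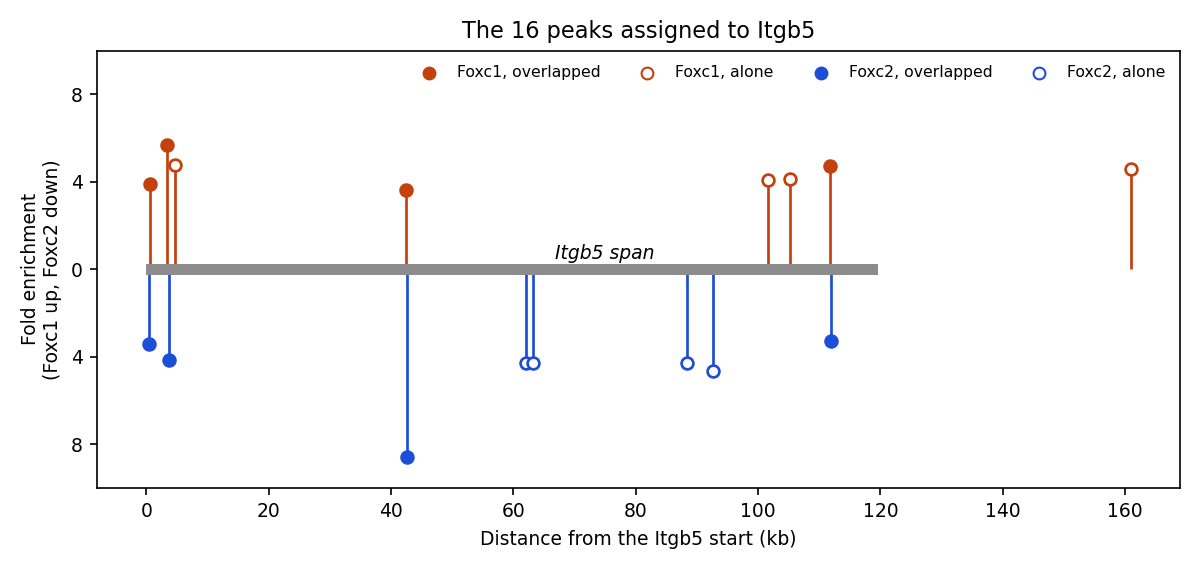
Fold enrichment of the 16 peaks assigned to Itgb5, drawn upward for Foxc1 and downward for Foxc2 at the distance of the summit from the start in kb; filled points are peaks overlapped by a peak of the other antibody and the grey bar is the gene span. Filled points form 4 pairs, with Foxc1 summits at 0.549, 3.31, 42.5 and 112 kb, and among the Foxc2 peaks the longest bar is that of fold 8.6.

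At Itgb5 the summits fell into a cluster at the start and scattered sites along the gene. Within 5 kb after the start, 3 Foxc1 summits and 2 Foxc2 summits were spread over 4.18 kb. The Foxc1 peaks there had folds of 3.92, 5.7 and 4.75, at 0.549, 3.31 and 4.66 kb from the start. The Foxc2 peaks had folds of 3.42 and 4.13, at 0.477 and 3.63 kb. Both Foxc2 peaks of the cluster shared bases with Foxc1 peaks, with summits 72 and 315 bp apart.

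Deeper in Itgb5, the antibodies met at 2 further sites. At 42.5 kb from the start, a Foxc1 peak of fold 3.64 (chr16:33872045-33872276) lay wholly within a Foxc2 peak of fold 8.6 (chr16:33871971-33872421), the strongest Foxc2 peak of the group and 42nd of 2881. The Foxc1 peak ranked 4613th of 5213, so the same place stood high in one list and low in the other. The other pair, at 112 kb, had folds of 4.71 for Foxc1 and 3.29 for Foxc2, with summits 106 bp apart. Foxc1 peaks alone stood at 102 and 105 kb with folds of 4.1 and 4.11, and at 161 kb with a fold of 4.59, where the summit lay inside the neighbouring gene Kalrn. Foxc2 peaks alone stood at 62.1, 63.1, 88.3 and 92.7 kb, with folds of 4.29, 4.3, 4.29 and 4.64. No Foxc1 summit lay between 62.1 and 92.7 kb, a stretch whose limits are set by these Foxc2 summits themselves.

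The Foxc1 peak of highest fold in the group, and its Foxc2 peak next in fold to the one in Itgb5, were counted for Cd151 (chr7:141467362-141471481) but lay in another tetraspanin gene. A Foxc1 peak at chr7:141476200-141476978 had a fold of 29.5 and ranked 33rd of 5213. A Foxc2 peak at chr7:141476305-141476886 had a fold of 8.29 and ranked 53rd of 2881. Their summits were 85 bp apart, and the Foxc2 peak lay wholly within the Foxc1 peak. A second Foxc1 peak of fold 7.91 followed 1.46 kb from the Foxc2 summit. All 3 summits were inside Tspan4, a neighbour of Cd151, and from 5.11 to 6.65 kb from the end of the Cd151 span. They were counted for 9 other protein-coding genes as well, in a stretch of chromosome 7 that is dense in genes. The windows at the starts of Cd151 itself held no summit of either antibody.

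An internal RefSeq start of Tspan4 lay under the shared pair, 215 bp before the Foxc1 summit and 300 bp before the Foxc2 summit. Its window is shown because it holds part of the strongest Foxc1 peak of the group. Capitals mark the 125 bases covered by both peaks.
Tspan4 (GRCm38.p6, chr7:141476130-141476429, + strand): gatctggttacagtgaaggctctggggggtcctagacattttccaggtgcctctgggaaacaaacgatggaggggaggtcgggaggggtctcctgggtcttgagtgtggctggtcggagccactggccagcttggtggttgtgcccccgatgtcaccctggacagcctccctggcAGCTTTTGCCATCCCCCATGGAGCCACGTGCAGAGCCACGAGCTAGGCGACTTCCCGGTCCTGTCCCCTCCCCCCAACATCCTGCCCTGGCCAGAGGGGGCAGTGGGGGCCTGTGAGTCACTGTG

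This window had 63.7% G and C and 8 CG pairs, fewer pairs than any of the 4 windows above, and held none of the 3 motifs searched. Both summits lay beyond its end, so the bases at the summits themselves were not read.

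Of the adaptors, Parva and Fermt2 had peaks of both antibodies and Ilk had none. Parva (chr7:112427706-112591688) had 4 of each, none shared. Its Foxc1 peaks had folds of 4.43, 3.11, 3.96 and 6.78, the first inside the neighbouring gene Micalcl and the last 9.19 kb beyond the far end of Parva. Its Foxc2 peaks had folds of 3.78, 4, 3.29 and 3.61, the first with its summit 274 bp inside the lower-coordinate end of the gene. No pair of summits from the different antibodies at Parva came closer than 14.6 kb. Among the 2569 genes with spans of 0.5 to 2 times that of Parva, itself included, 99 had at least 4 Foxc1 peaks (3.85%) and 18 had at least 4 Foxc2 peaks (0.701%). For the other members with a peak, apart from Itgb5, such shares were higher. For Foxc2 they were 26.4% at Itgb1, 25% at Itga3, 28.3% at Itgav, 23.4% at Cd151 and 7.29% at Fermt2. For Foxc1 they were 9.5, 8.13, 4.77, 6.68 and 11.8% in the same order, and 36.6% at Itgb8.

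Fermt2 (chr14:45458792-45530310) had 2 peaks of each antibody. Its Foxc1 peaks had folds of 8.86, inside the gene and 52 kb from the start, and 5.06, which lay 20.3 kb before the start. Its Foxc2 peaks had folds of 5.19, with the summit 87 bp before the start, and 3.31, inside the gene and 66.1 kb from the start. The start of a long noncoding RNA gene on the other strand, Gm46452, lay 70 bp from the first Foxc2 summit, so that peak covers the starts of both. Ilk (chr7:105736590-105742925) had its nearest Foxc1 and Foxc2 summits 68.2 and 68.3 kb from an end of its span, outside the distance counted.

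**Figure D3:**
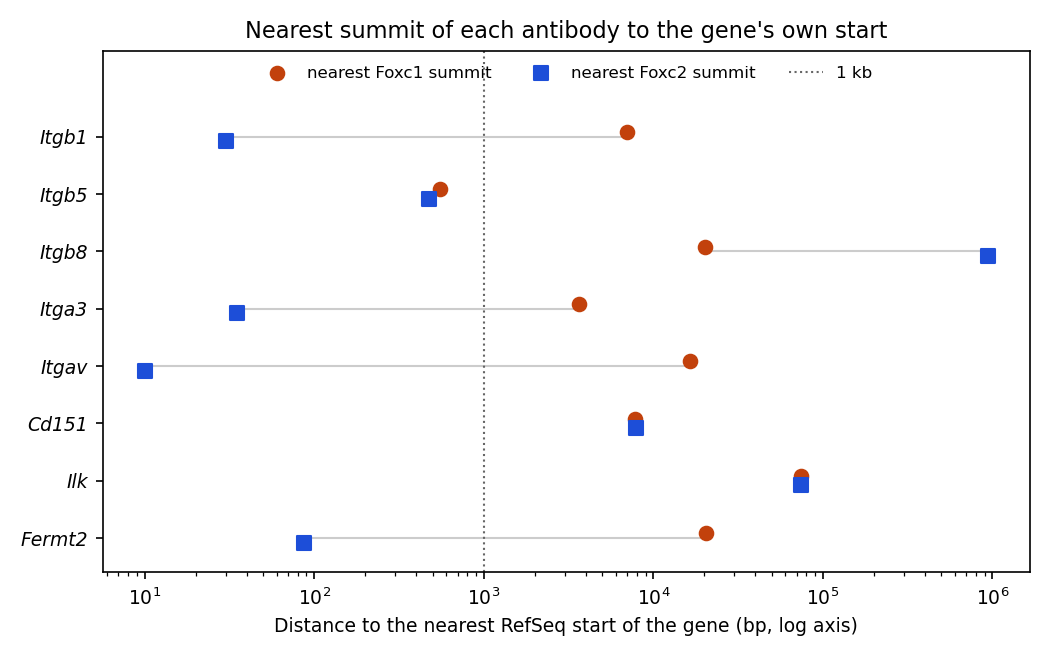
Distance in bp, on a log axis, from the nearest RefSeq start of each gene to the nearest Foxc1 summit (circles) and the nearest Foxc2 summit (squares), for the 8 genes with a start window; the dotted line marks 1 kb. Foxc2 squares lie left of the line for Itgb1, Itgb5, Itga3, Itgav and Fermt2, while the only Foxc1 circle left of it is that of Itgb5.

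Across the group, the antibodies differed in how close they came to starts. Of the 8 genes with a RefSeq start, 1 had a Foxc1 summit within 1 kb of it (12.5%, exact interval 0.316 to 52.7%), against 2.7% of 17492 protein-coding genes with such a start. For Foxc2 there were 5 of 8 (62.5%, exact interval 24.5 to 91.5%), against 8.36% of those genes. Relative to either end of any protein-coding gene, 1 of 24 Foxc1 summits of the group lay within 1 kb (4.17%, exact interval 0.105 to 21.1%), against 10.9% of the whole list. For Foxc2 the count was 5 of 18 (27.8%, exact interval 9.69 to 53.5%), against 52.4% of the whole list. Both list-wide shares lay inside these intervals, which treat the peaks as independent although 8 of each antibody were at Itgb5. The rule takes peaks near genes, so these shares leave out peaks far from any gene, which the whole lists include. Of the 8 Foxc2 peaks of Itgb5, 7 lay away from gene ends.

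Shared sites were found at 2 genes. Of the 24 Foxc1 peaks, 5 were overlapped by a Foxc2 peak by at least 1 bp (20.8%, exact interval 7.13 to 42.2%), against 8.2% of the whole list. Of the 18 Foxc2 peaks, 5 shared bases with Foxc1 (27.8%, exact interval 9.69 to 53.5%), against 14.8%. The shares of both whole lists lay inside these intervals, which again treat the peaks as independent. Of the 5 pairs, 4 were at Itgb5 and 1 at Cd151, and without Itgb5 there was 1 pair among 16 Foxc1 and 10 Foxc2 peaks.

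**Figure D4:**
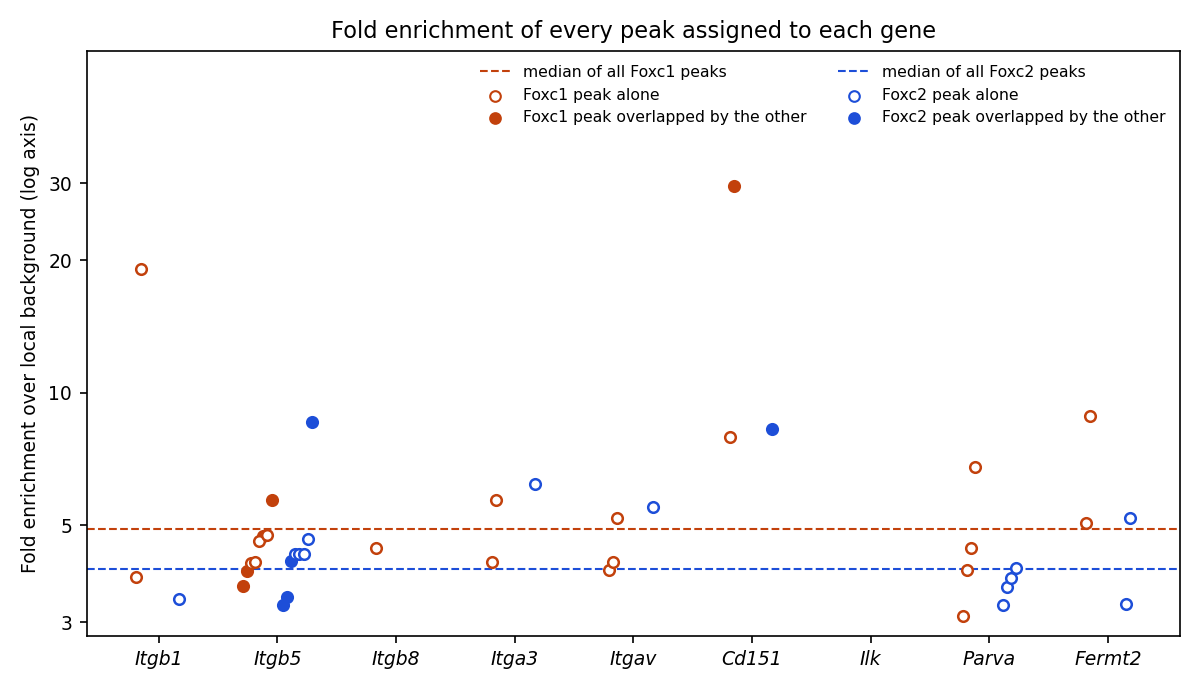
Fold enrichment of each peak over its local background, on a log axis, for the 24 Foxc1 peaks (left of each gene name) and 18 Foxc2 peaks (right of it); filled points are overlapped by a peak of the other antibody and dashed lines are the medians of the whole lists, 4.9 for Foxc1 and 3.97 for Foxc2. The highest Foxc1 points are those of fold 29.5 at Cd151 and 19.1 at Itgb1, and the highest Foxc2 point is that of fold 8.6 at Itgb5.

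The median folds of the group lay near those of the whole lists. The median fold of its Foxc1 peaks was 4.51 (lowest 3.11, highest 29.5), against 4.9 over the whole Foxc1 list, and 9 of the 24 exceeded that list median. The median fold of its Foxc2 peaks was 4.21 (lowest 3.29, highest 8.6), against 3.97 over the whole Foxc2 list, and 11 of the 18 exceeded it. Folds are the authors' values, and each was ranked within its own list. The member with the highest Foxc1 fold and the one with the most peaks were different genes: at Itgb5 no Foxc1 peak went above 5.7.

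Other genes of integrin adhesion, 72 chosen by role, are given for setting. A Foxc1 summit was counted for 37 of them (51.4%), a Foxc2 summit for 25 (34.7%) and both for 18 (25%), against the 29.3, 23.2 and 12.5% of all genes above. Their median span was 58.7 kb, and the part of gene length in these shares was not tested. A peak within 50 kb of adjoining genes of the list was counted for each of them, so 1 peak can add more than 1 gene to a share. Of 21 other integrin chains, 9 had Foxc1 (42.9%) and 7 had Foxc2 summits (33.3%), against 29.3% and 23.2% of all genes. Itga9, an alpha chain with a span of 294 kb, led with 6 Foxc1 peaks and 2 Foxc2 peaks. Itga8, the partner of Itgb1 on mesangial cells, had 3 and 0, Itgb4 had 1 and 2, and Itgb7 had 0 and 3. None of the other chains reached, for either antibody, the 8 peaks counted at Itgb5.

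Of 8 other tetraspanins and lateral partners, 1 had Foxc1 (12.5%) and 3 had Foxc2 summits (37.5%), against 29.3% and 23.2% of all genes. These were Cd47, with 1 peak of each antibody, and Cd81 and Cd82, each with 1 Foxc2 peak alone. Of 23 other adaptors, 16 carried Foxc1 summits (69.6%) and 8 carried Foxc2 summits (34.8%), beside the same shares of all genes. The tensin genes Tns2 (3 Foxc1 and 5 Foxc2 peaks), Tns3 (4 and 3) and Tns1 (4 and 0) led these, with Vcl, which encodes vinculin, at 2 and 2. Their spans were 17.9, 233, 214 and 104 kb in that order. Lims1, which encodes the LIM protein that completes the complex of Ilk and parvin, had 2 Foxc1 peaks of fold 4.43 or less and no Foxc2 peak, and is named here after its values were seen.

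Among 20 ligands, Foxc1 summits were counted for 11 (55%) and Foxc2 summits for 7 (35%), against 29.3% and 23.2% of all genes. Nid1, which encodes the basement membrane linker nidogen, had 3 Foxc1 and 2 Foxc2 peaks, the highest at folds of 17.7 and 3.27. Col4a3 had 3 and 2 and the adjoining Col4a4 had 2 and 2, and a peak between these collagen genes can be counted for both. Lamc1, a chain of the laminin that Itga3 and Itgb1 bind, had 2 Foxc1 peaks and 1 Foxc2 peak, and Col4a1 and Col4a2 tied with it in the number of peaks in all.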

How the data were processed

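ChIP-seq peak lists of 1 Foxc1 and 1 Foxc2 library were used, with groups taken from the sample titles. The authors used Bowtie2 and MACS2 with the mm10 build, as the submitters' processing notes list. Versions, filters, the control and any pooling were not given in the sources used here. Each deposited list gives every peak's fold enrichment (a ratio to local background, from the authors' peak caller), the deposited −log10 of its p-value and q-value, and its summit as an offset from the peak's start. The deposited score, 10 times the −log10 q, was not used. From these, summits were assigned to spans of GRCm38.p6, the assembly behind mm10, on chromosomes 1 to 19, X and Y, with Python 3.11.15, pandas 2.3.3 and SciPy 1.17.1. Overlap needed 1 shared bp. Spans in the RefSeq gene table carry no strand or exons, so exon and intron classes were not used here, and strand and starts came from the RefSeq start windows. Read depth is unknown. The assignment and overlap steps were tested on simulated data.

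The members and lists were chosen with earlier results of these data known. Genes named were the members, genes whose spans hold a summit assigned to a member, up to 4 genes with the most peaks per part of the list of 72, and genes with as many peaks of each antibody as the leading member. Outside this rule, Lims1 was named after its values were seen, and so were all 3 ligands that tied for the fourth place. No test was run. Alternatives covered the distance and exclusivity of assignment, peak thresholds, overlap rules and gene ends. The comparison with genes of similar span and the counts without Itgb5 were added after the data were seen. The range of span, 0.5 to 2 times the member's own, was settled after 2 narrower ranges had been tried. Under 0.8 to 1.25 times, 2 of 1097 genes had as many Foxc1 peaks as Itgb5, itself included, and under 0.8 to 1.2 times, 1 of 1019.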

Additional observations from a re-analysis of the deposited data

How the results depend on the processing

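Of 66 alternative values for the 8 counts over the group, 45 stayed within 1.5 times the reported count and 21 did not. No paired analysis was possible because each antibody had 1 library and no test was run. The lowest counts came with peaks of fold 5 or more alone: 9 Foxc1 and 5 Foxc2 peaks, 1 overlapped peak in each list, and 0 Foxc1 and 2 Foxc2 summits within 1 kb of a gene end, since most of the peaks here lie below that fold. Members with a summit then numbered 7 for Foxc1 and 5 for Foxc2, and with gene spans alone 6 and 5. Without Itgb5, an alternative added after the data were seen, there were 10 Foxc2 peaks, 1 overlapped peak in each list and 0 Foxc1 summits at a gene end. With a −log10 q of 5 or more in both lists, 2 peaks of each list were overlapped and 3 Foxc2 summits lay at gene ends. With summits required within 100 bp of each other, 2 pairs counted. Gene spans alone left 14 Foxc1 peaks. Flanks of 100 kb gave 2 Foxc1 and 8 Foxc2 summits at gene ends, and brought Ilk 1 peak of each antibody. Gene ends widened to 5 kb gave 7 Foxc1 and 8 Foxc2 summits, and RefSeq starts in place of span ends gave 2 Foxc1 summits. When a summit counted for the nearest protein-coding gene alone, Cd151 lost all its peaks. Peak lists without read counts cannot show which sites fell just short of the authors' threshold, so a gene with no peak was not shown to lack binding.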

Other observations

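Across the RefSeq start windows of all genes, those holding a summit differed by antibody in sequence. TAAACA was present in 99 of the 221 windows that held a Foxc1 summit (44.8%) and in 52 of the 808 that held a Foxc2 summit (6.44%), against 13.4% of all windows. GTAAACA was present in 30.8% and 3.22% of them, against 3.65% of all. The median number of CG pairs was 20 in windows with a Foxc1 summit and 32 in windows with a Foxc2 summit, against 7 over all. These are counts of letters in 1 library per antibody and were not tested. No start window of the integrin group held a Foxc1 summit, so the group adds no window to the Foxc1 figure.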
